A study of Mus musculus with 4 samples.

Results

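The Nrf2 antioxidant response was followed through 10 genes of a table of 28692 genes: Nfe2l2, Keap1, Sqstm1, Hmox1, Gclc, Gclm, Slc7a11, Txnrd1, Srxn1 and Prdx1. They were chosen by name, and each had a row in the table of unique molecular identifiers (UMIs), which count captured transcripts. Single-cell RNA sequencing had been carried out on sorted cells of the colon lamina propria of 4 male C57/Bl6N mice. DEP 11 and DEP 13 had been gavaged with 12 µg of diesel exhaust particles (DEP) in 200 µL of phosphate-buffered saline (PBS) on 5 days a week for about 6 months, whereas PBS 2 and PBS 3 had been gavaged with the vehicle only. All were wild-type, and the sort took CD11b+ cells that carried Ly6C or CD64, that is monocytes and macrophages. Each mouse was 1 library, so that library and animal cannot be told apart.

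Nrf2, the product of Nfe2l2, is a transcription factor that is held in the cytoplasm and marked for degradation by Keap1, a sensor of reactive molecules. When Keap1 is modified by electrophiles or oxidants, or occupied by p62 (Sqstm1), Nrf2 enters the nucleus, pairs with small Maf proteins and binds antioxidant response elements, while Bach1 represses a part of the same sites. Its targets make glutathione, restore thioredoxin and degrade haem, and combustion particles are known as inducers of the pathway in macrophages.

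The core letters of the antioxidant response element, TGACNNNGC, read on both strands (GCNNNGTCA on the other), were searched in the 300 bases around each transcription start, from 250 before to 50 after it (RefSeq promoters, GRCm38.p6). Promoter entries were given for 8 of the 10 genes, with 10 promoters in all; Hmox1 and Gclc had none. The letters were found for 5 of the 8 genes. They were also found in 12.4% of all 32851 promoters and for 14.0% of 27025 genes. The 5 matches are printed because they show how the binding letters of the pathway look in its own genes, with 10 bases on each side, on the strand of the gene and with the match in capitals.
Nfe2l2: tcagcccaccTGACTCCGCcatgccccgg
Srxn1: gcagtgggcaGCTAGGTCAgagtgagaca
Gclm: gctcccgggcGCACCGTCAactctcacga
Prdx1: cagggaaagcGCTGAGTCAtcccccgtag
Txnrd1: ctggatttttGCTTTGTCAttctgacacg
The window of Nfe2l2 lies at chr2:75704885-75704913 on the minus strand, and its match begins 240 bases before the start. The other windows lie on the plus strand, with the match of Srxn1 (chr2:152105542-152105570) 29 bases after the start and that of Gclm (chr3:122245413-122245441) 134 bases before it. The match of Prdx1 (chr4:116685456-116685484) begins 133 bases and that of Txnrd1 (chr10:82859104-82859132) 92 bases before the start. A match of letters is a description and not a binding site.

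The table held 6954 barcodes, of which 4771 had at least 1000 UMIs. Of these, 104 carried more UMIs of T cell, B cell and plasma cell markers than of myeloid markers and were set apart, leaving 4667 myeloid cells (652 to 1540 per mouse, with medians of 5295 to 7114 UMIs). The total count per mouse ranged from 4489342 UMIs in DEP 13 to 10293703 in PBS 2. All 6 myeloid markers had UMIs in every mouse, and the 5 colon epithelium genes summed to 9.5 to 42.3 CPM (UMIs of a gene scaled to a sum of 1000000). Of the 4 neutrophil genes 2 or 3 had UMIs in each mouse, with a summed level of 28.5 to 38.4 CPM, and S100a9 was at 0 in all mice. Of the 3 eosinophil genes 2 had UMIs in each mouse, with a summed level of 1.3 to 2.1 CPM, and Epx was at 0 in all mice.

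To follow the genes along the maturation from monocyte to macrophage, cells were divided by Ly6c2, which encodes Ly6C of monocytes, and by C1qa, a complement gene of resident macrophages. Ly6c2-high cells (844) had Ly6c2 above the median of the cells with a Ly6c2 UMI (2.57 per 10000 UMIs) and C1qa below the median of all cells (34.5 per 10000), and C1qa-high cells (1638) had no Ly6c2 UMI and C1qa at or above that median. Another 2078 cells were intermediate and 107 were high in both. These are ranges and not cell types, since 467 cells lay within 20% of the C1qa median and 283 within 20% of the Ly6c2 median. The 8 macrophage markers summed to 53336 to 62380 CPM in C1qa-high and 11698 to 19609 CPM in Ly6c2-high cells, and the 8 monocyte markers to 514.0 to 842.6 and 7027 to 7850 CPM, in part through the genes that had chosen the cells. Ly6c2-high cells were also shallower (median 4898 against 6951 UMIs), and in them the 6 T cell markers summed to 24.4 to 62.6 CPM, against 3.9 to 15.3 CPM in C1qa-high cells, the 4 neutrophil genes to 46.0 to 74.9 against 24.7 to 32.9 CPM, and the 17 dissociation genes to 13860 to 20705 against 11816 to 16883 CPM. The part of these in the differences between the sets of cells was not tested. Ly6c2 has a near-identical neighbour, Ly6c1, so that some of its reads may be shared.

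Between C1qa-high and Ly6c2-high cells of the same mice, the genes of the Nrf2 response did not move as 1 group. Nfe2l2, its activator Sqstm1, Hmox1 and the peroxidase Prdx1 were higher in C1qa-high cells, Txnrd1 was lower, and Keap1 and Slc7a11 did not pass the test. In the quasi-likelihood test of edgeR with the mouse as a block, 2672 of 7055 tested genes were called at an adjusted p under 0.05, or 37.9%, of which 17.9% of the tested genes were higher and 20% lower in C1qa-high cells. Of the 10 Nrf2 response genes, 7 were tested, and 4 were higher and 1 lower, with a median log2 fold change of 0.25 against 0.01 over all tested genes. Gclm, Gclc and Srxn1 had a UMI in too few cells to be tested. Of 43 further genes of the pathway, listed by role, 37 were tested, and 7 were higher and 19 lower, with a median log2 fold change of −0.39.

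**Figure D1:**
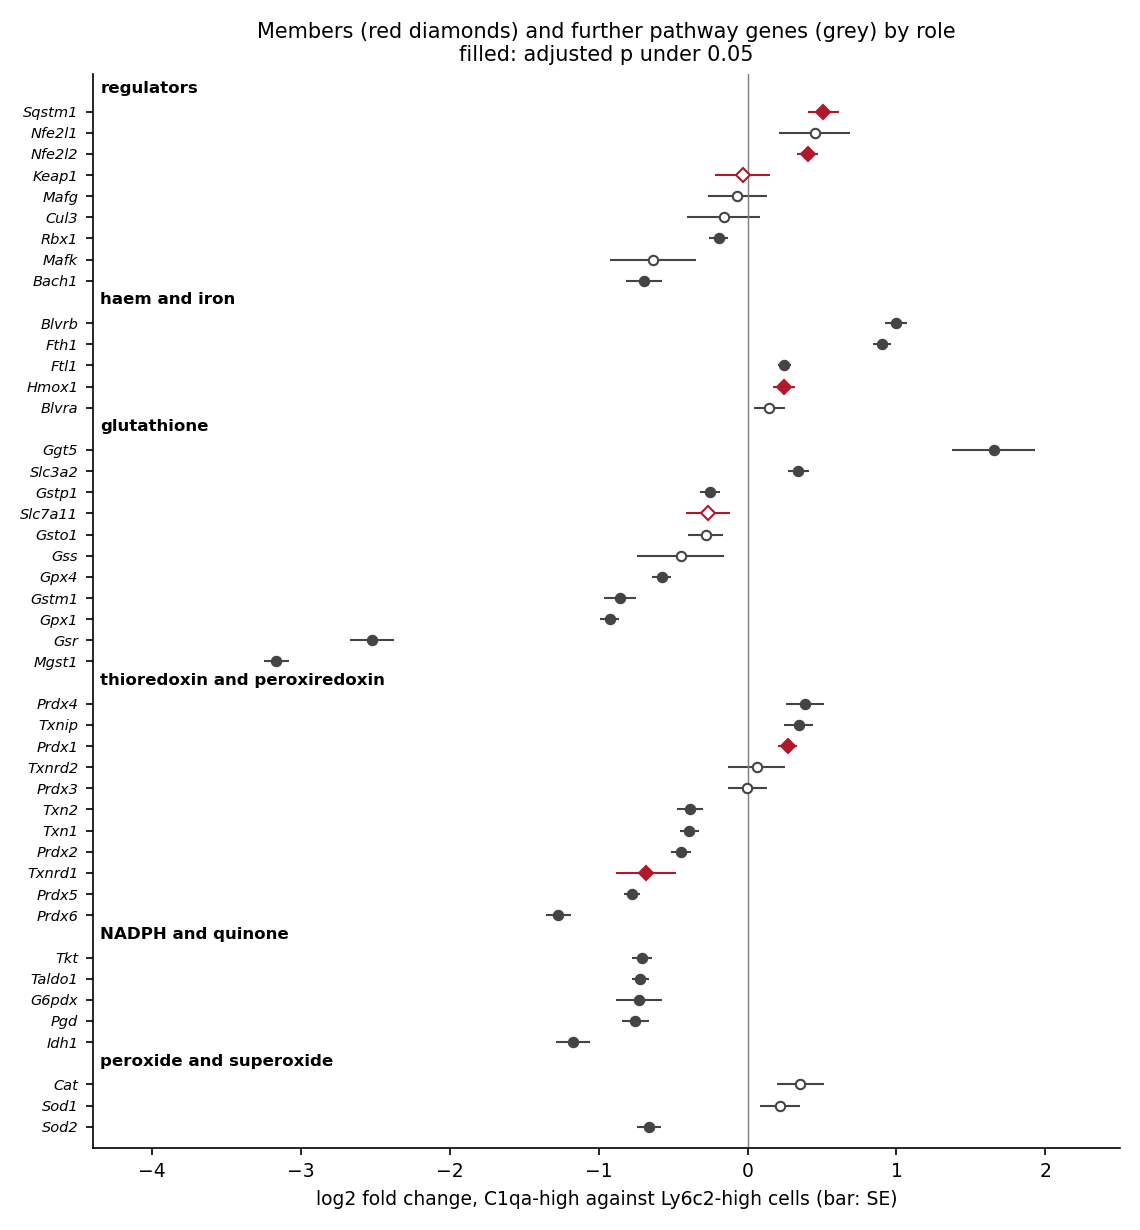
Log2 fold changes of C1qa-high against Ly6c2-high cells (x axis, 4 mice) are plotted by role. Red diamonds are tested Nrf2 response genes and grey circles further pathway genes. Bars are SE derived from the edgeR F statistic, and filled symbols have an edgeR adjusted p under 0.05. The haem and iron genes lie at or right of 0, all 5 NADPH genes lie left of it, and the glutathione genes reach −3.17 (Mgst1).

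Among the regulators, Nfe2l2 stood at 242.6 and 196.9 CPM in DEP 11 and DEP 13 and 226.5 and 232.1 CPM in PBS 2 and PBS 3 in Ly6c2-high cells. In C1qa-high cells of the same mice it stood at 330.2, 288.6, 277.6 and 283.8 CPM. Every C1qa-high value lay above every Ly6c2-high value, and the log2 fold change was 0.40 (SE 0.07, edgeR adjusted p = 0.000131). Sqstm1, the autophagy receptor that binds Keap1, had 66.4, 70.6, 79.3 and 55.4 CPM in Ly6c2-high and 104.5, 79.6, 103.7 and 85.7 CPM in C1qa-high cells, in the same order of mice. It was higher in 4 of 4 mice by 0.51 on the log2 scale (SE 0.10, edgeR adjusted p = 0.000602). The call for Sqstm1 was lost when each cell was thinned to 1000 UMIs (log2 fold change 0.54, adjusted p = 0.0619, range over the alternatives 2.57e-05 to 0.0619). Keap1 had 17.1 to 26.0 CPM in Ly6c2-high and 16.4 to 24.4 CPM in C1qa-high cells, with 2 mice higher and 2 lower (log2 fold change −0.03, SE 0.18, edgeR adjusted p = 0.921).

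Of the 8 further regulators, 6 were tested and 2 were called, both lower in C1qa-high cells. Over all tested genes, 37.9% were called, 17.9% higher and 20% lower, and these shares stand beside the counts of each role below. Bach1, the repressor that competes with Nrf2 at Hmox1, stood at 50.1 and 70.6 CPM in DEP 11 and DEP 13 and 68.5 and 63.0 CPM in PBS 2 and PBS 3 in Ly6c2-high cells, and at 31.9, 41.0, 44.8 and 34.1 CPM in C1qa-high cells. The groups of cells did not overlap, and the log2 fold change was −0.70 (SE 0.12, edgeR adjusted p = 0.000103). Rbx1, a subunit of the ubiquitin ligase that Keap1 recruits, fell by 0.19 on the log2 scale (SE 0.07, edgeR adjusted p = 0.0243). Cul3, the scaffold of that ligase, Mafg, Mafk and the related factor Nfe2l1 did not pass the test.

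Hmox1, the enzyme that opens haem to biliverdin, iron and carbon monoxide, had 102.1 and 173.4 CPM in DEP 11 and DEP 13 and 205.4 and 328.9 CPM in PBS 2 and PBS 3 in Ly6c2-high cells. The C1qa-high cells of these mice had 129.3, 208.0, 231.7 and 372.8 CPM. C1qa-high cells were higher in 4 of 4 mice, but the mice differed far more from each other than the cells did within a mouse, where the log2 ratio was 0.17 to 0.34. With the mouse as a block the log2 fold change was 0.25 (SE 0.07, edgeR adjusted p = 0.0102), and the call was lost without the block (adjusted p = 0.640) and in DESeq2 (adjusted p = 0.102), the range over the alternatives being 0.00103 to 0.640. Of 5 further haem and iron genes, 4 were tested and 3 were called, all higher. Blvrb, a biliverdin reductase, stood at 146.6 to 179.1 CPM in Ly6c2-high and 289.6 to 329.1 CPM in C1qa-high cells (log2 fold change 0.996, SE 0.07, edgeR adjusted p = 1.05e-09). The ferritin heavy chain gene Fth1, which stores iron, went from 6031 to 7970 CPM up to 12152 to 12635 CPM (log2 fold change 0.90, SE 0.06, edgeR adjusted p = 2.22e-10), and the light chain gene Ftl1 was higher by 0.25 on the log2 scale (SE 0.05, edgeR adjusted p = 0.000187). The iron exporter gene Slc40a1 was under the filter, with at most 7.3 CPM in these cells of any mouse.

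The 10 tested further glutathione genes had a median log2 fold change of −0.51, with calls in both directions. Slc7a11, the cystine importer that feeds glutathione synthesis, had 40.4, 36.4, 34.6 and 23.5 CPM in Ly6c2-high and 33.0, 32.3, 26.1 and 20.3 CPM in C1qa-high cells of DEP 11, DEP 13, PBS 2 and PBS 3. It was lower in 4 of 4 mice without passing the test (log2 fold change −0.27, SE 0.15, edgeR adjusted p = 0.169), and passed it when C1qa was divided at its tertiles (log2 fold change −0.66, adjusted p = 0.0075, range 0.0075 to 0.521). Its partner in the importer, Slc3a2, was higher (log2 fold change 0.34, SE 0.07, edgeR adjusted p = 0.000554). The subunits of the enzyme that makes the glutathione precursor, Gclc and Gclm, were found at 0.6 to 10.7 and 3.8 to 8.7 CPM in Ly6c2-high cells and at 2.3 to 5.8 and 3.7 to 10.6 CPM in C1qa-high cells, which were 1 to 26 UMIs per mouse and set of cells. Each was higher in C1qa-high cells in 2 of 4 mice. Over all 15625 genes with a count, the log2 fold change was 0.17 for Gclm (SE 0.35, edgeR adjusted p = 0.837). It was 0.16 for Gclc (SE 0.49, edgeR adjusted p = 0.870). A difference was not detectable at this depth.

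Of the 11 further glutathione genes, 10 were tested, of which 6 were lower and 2 higher in C1qa-high cells. Mgst1, a microsomal glutathione transferase, had 295.6, 348.8, 297.5 and 366.5 CPM in Ly6c2-high cells and 30.8, 32.3, 32.6 and 45.5 CPM in C1qa-high cells. The log2 fold change was −3.17 (SE 0.09, edgeR adjusted p = 7.26e-16). Gsr, the reductase that regenerates glutathione, stood at 63.0 to 109.1 CPM in Ly6c2-high and at 9.7 to 17.6 CPM in C1qa-high cells (log2 fold change −2.53, SE 0.15, edgeR adjusted p = 4.91e-11), and it was lower from each quartile of C1qa to the next in 4 of 4 mice. Gpx1, a glutathione peroxidase, fell by 0.93 on the log2 scale (SE 0.06, edgeR adjusted p = 4.87e-10). Ggt5, a gamma-glutamyl transferase gene at the cell surface, was higher by 1.65 on the log2 scale (SE 0.28, edgeR adjusted p = 7.67e-05) at 21.2 to 26.6 against 0 to 10.9 CPM. Ggt5 was under the filter in Ly6c2-high cells alone and passed it through the cells in which it was high, so that its call is no independent support for a difference.

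In the thioredoxin and peroxiredoxin branch, Prdx1, which removes hydrogen peroxide, had 561.3, 635.6, 555.4 and 812.9 CPM in Ly6c2-high and 756.1, 754.4, 605.3 and 921.6 CPM in C1qa-high cells. It was higher in 4 of 4 mice, by 0.27 on the log2 scale (SE 0.06, edgeR adjusted p = 0.00176), and the call was lost without the mouse as a block (adjusted p = 0.229, range 1.97e-05 to 0.229). Txnrd1, the reductase of thioredoxin, went the other way, with 18.3, 25.7, 30.1 and 20.7 CPM in Ly6c2-high and 15.6, 12.5, 19.5 and 9.1 CPM in C1qa-high cells. It was lower in 4 of 4 mice and fell by 0.68 on the log2 scale (SE 0.20, edgeR adjusted p = 0.0112), although the values of both sets of cells overlapped between mice. The call for Txnrd1 was lost without PBS 3 (log2 fold change −0.55, adjusted p = 0.0681) and in DESeq2 (−0.72, adjusted p = 0.0804, range 0.00467 to 0.0804). Prdx1 has processed pseudogenes, and the study's methods state a Cell Ranger run in which STAR wrote out 1 alignment per read, so that reads shared with these copies leave its level uncertain.

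Srxn1, the enzyme that reactivates peroxiredoxins, had 1 and 0 UMI in DEP 11 and DEP 13 and 4 and 0 UMI in PBS 2 and PBS 3 in Ly6c2-high cells, against 21, 10, 11 and 14 UMIs in C1qa-high cells. It was higher in C1qa-high cells of all 4 mice, at 3.1 to 7.4 CPM against 0 to 2.6. Without the filter on the share of cells, over 15625 genes, its log2 fold change was 1.97 (SE 0.60, edgeR adjusted p = 0.00669), a value that depends on the prior count since 2 sums were 0. All 9 further genes of this branch were tested, and 5 were lower and 2 higher. Prdx6, Prdx5 and Prdx2, peroxiredoxins of cytosol and organelles, fell by 1.27, 0.78 and 0.45 on the log2 scale (edgeR adjusted p = 2.50e-10, 6.68e-10 and 2.10e-05). Prdx4, the peroxiredoxin of the endoplasmic reticulum, was higher by 0.39 on the log2 scale (SE 0.13, edgeR adjusted p = 0.0197). Txnip, the thioredoxin inhibitor, was called at 0.34 on the log2 scale (SE 0.10, edgeR adjusted p = 0.00981), yet it was higher in 2 of 4 mice only.

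The enzymes that supply NADPH, the reductant that glutathione and thioredoxin reductases draw on, were the most uniform branch. All 5 tested of 7 were lower in C1qa-high cells, with a median log2 fold change of −0.73. Taldo1 and Tkt of the pentose phosphate pathway stood at 824.0 to 877.7 and 243.4 to 329.3 CPM in Ly6c2-high cells and at 444.5 to 526.6 and 151.8 to 189.9 CPM in C1qa-high cells. Their log2 fold changes were −0.72 (SE 0.06, edgeR adjusted p = 3.75e-09) and −0.71 (SE 0.07, edgeR adjusted p = 7.46e-08). Idh1, the cytosolic isocitrate dehydrogenase, fell by 1.17 (SE 0.11, edgeR adjusted p = 7.14e-08). Nqo1, the quinone reductase often used as an indicator of Nrf2, had 0 to 0.8 CPM over all myeloid cells of a mouse. Sod2, the mitochondrial superoxide dismutase, was the only called gene of 3 in the peroxide and superoxide group and fell by 0.66 on the log2 scale (SE 0.08, edgeR adjusted p = 1.62e-06).

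**Figure D2:**
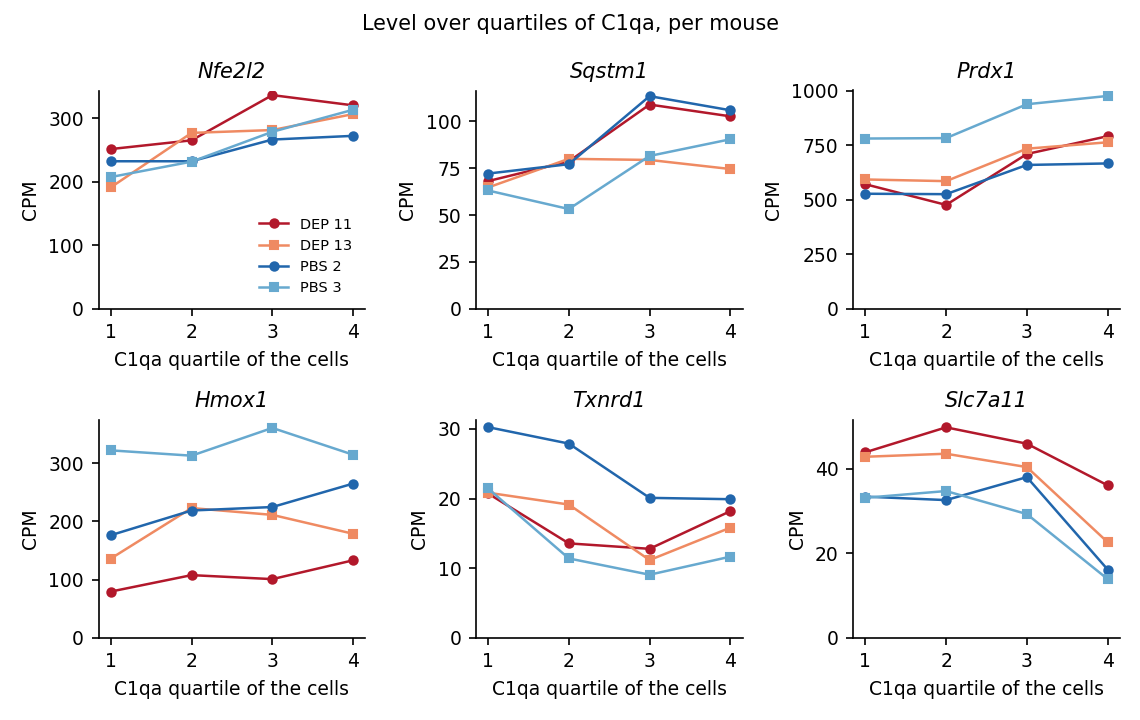
CPM (y axis, from 0) of 6 Nrf2 response genes is plotted over quartiles of the C1qa level of the cells (x axis), with 1 line per mouse. Nfe2l2, Sqstm1 and Prdx1 are higher in the fourth than in the first quartile in every mouse, Slc7a11 is lowest in the fourth, and for Hmox1 the lines of DEP 11 and PBS 3 stay apart throughout.

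Over quartiles of C1qa, drawn from all myeloid cells, Nfe2l2 went from 190.9 to 251.2 CPM in the lowest quartile to 272.0 to 320.0 CPM in the highest. It was higher at each step in 3 of 4 mice, although a PBS mouse among them was nearly level from the first to the second quartile. DEP 11 had its highest value in the third quartile. Slc7a11 stood at 33.1 to 43.8 CPM in the lowest quartile and at 13.9 to 36.0 CPM in the highest, and every mouse had its lowest value in the highest quartile. Hmox1 was higher at each step in 1 mouse only. In all 4 quartiles, DEP 11 had the lowest and PBS 3 the highest Hmox1 level, but in the second quartile the groups overlapped, with 222.7 CPM in DEP 13 and 218.5 CPM in PBS 2.

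The spread of the transcripts over cells was described by the share that the cells with the highest level held. The 10% of cells with the highest level held 23.1 to 24.5% of the Prdx1 UMIs and 26.0 to 29.0% of the Nfe2l2 UMIs of a mouse. For Hmox1 these cells held 41.1% in PBS 3, 47.0% in PBS 2, 50.5% in DEP 13 and 60.1% in DEP 11, and single cells reached 15 to 31 UMIs. For Slc7a11 they held 80.1 to 100%, with up to 7 to 16 UMIs in a cell although 2.53 to 3.83% of cells had a UMI after thinning to 1000 UMIs. This share rises as a gene becomes sparse, and it was 62.6 to 100% for Keap1, 70.9 to 100% for Txnrd1 and 100% in every mouse for Gclm, Gclc and Srxn1. It therefore cannot tell a gene used by few cells from one captured rarely, and for Hmox1 it ran in the reverse order of the level of the mice.

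**Figure D3:**
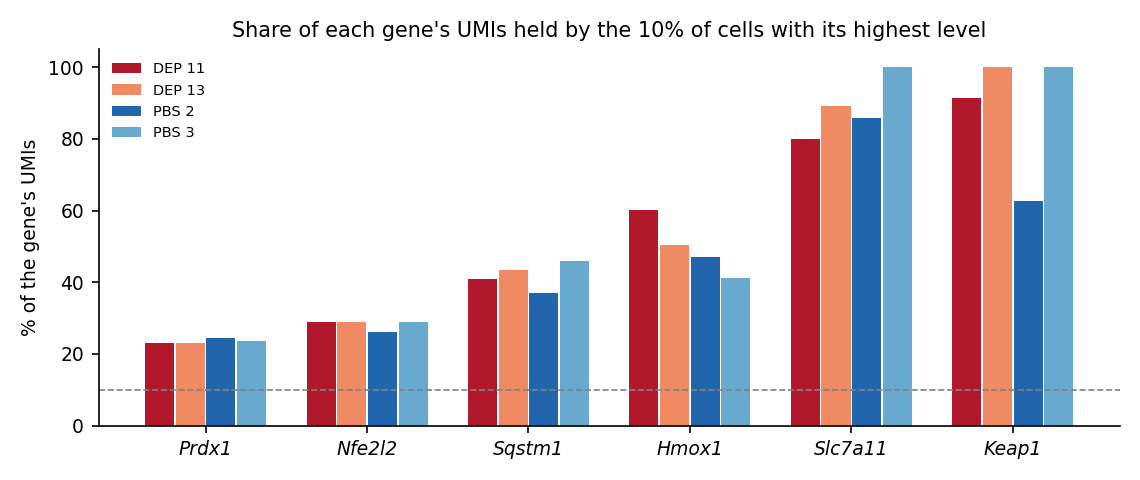
Bars give the percent of a gene's UMIs (y axis, from 0) that the 10% of myeloid cells with its highest level held, per mouse; the dashed line is the 10% that an even spread would give. Prdx1 lies at 23.1 to 24.5%, Hmox1 at 41.1 to 60.1% and Slc7a11 at 80.1 to 100%; a gene with UMIs in under 10% of cells reaches 100% by its sparseness alone.

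Droplets also hold free RNA, so the levels were set beside those of the lymphoid-marked cells and of 1614 barcodes under 500 UMIs. Nfe2l2 stood at 67.5 to 80.1 CPM in the lymphoid-marked cells, against 256.4 to 297.5 CPM in the myeloid cells, and Hmox1 at 42.7 to 139.3 against 109.7 to 332.8 CPM. After thinning to 1000 UMIs, 22.6% of myeloid and 5.77% of lymphoid-marked cells had an Nfe2l2 UMI, and 16.6% and 6.73% had a Hmox1 UMI (median depths before thinning of 4898 to 6951 UMIs in the 4 myeloid sets and 18631 UMIs in the lymphoid-marked cells). The barcodes under 500 UMIs had 433.5 and 322.7 CPM of Nfe2l2 in DEP 11 and DEP 13 and 230.0 and 169.1 CPM of Nfe2l2 in PBS 2 and PBS 3, from 20 to 71 UMIs each. These Nfe2l2 levels lay above those of the myeloid cells in both DEP mice and under them in both PBS mice, with both DEP mice above both PBS mice. The same barcodes had 61.1 and 209.7 CPM of Hmox1 in DEP 11 and DEP 13 and 156.1 and 177.1 CPM of Hmox1 in PBS 2 and PBS 3, from 10 to 22 UMIs each. For Slc7a11 they had 64.5 to 96.6 CPM from 4 to 14 UMIs, above the 27.9 to 42.0 CPM of the myeloid cells in every mouse. The part of free RNA or of damaged cells in the Nfe2l2, Hmox1 and Slc7a11 levels was not tested.

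DEP and PBS mice were compared to ask whether long oral exposure to the particles went with a higher Nrf2 response in these cells. C1qa-high cells were 36.3 and 43.7% of the myeloid cells in DEP 11 and DEP 13 and 33.1 and 32.1% in PBS 2 and PBS 3, without overlap. Ly6c2-high cells were 19.2 and 15.0% against 20.8 and 16.2%. A difference of these shares between the groups was not tested. The shares also depend on depth, since C1qa-high cells had to lack a Ly6c2 UMI. The median depth was 5295 and 5767.5 UMIs in DEP 11 and DEP 13 and 7114 and 5338 UMIs in PBS 2 and PBS 3. The part of the shares in the values over all myeloid cells was not tested, and values within each set of cells are given beside them. None of the 7 tested Nrf2 response genes was called in any set of cells. In all myeloid cells, edgeR called 0 of 6567 genes (0%), with 167 at an unadjusted p under 0.05, while DESeq2 called 4 and limma voom 0. In Ly6c2-high cells 0 of 5641 genes (0%) were called, with 168 under 0.05, and DESeq2 and limma voom called 0. In C1qa-high cells 0 of 6915 genes (0%) were called, with 254 under 0.05, while DESeq2 called 3 and limma voom 0. Over the 7 genes the median log2 fold change was −0.11 in all myeloid, −0.06 in Ly6c2-high and −0.01 in C1qa-high cells, where all tested genes had medians between −0.004 and −0.002. Of the 43 further pathway genes, 37, 34 and 36 were tested and 0 were called.

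**Figure D4:**
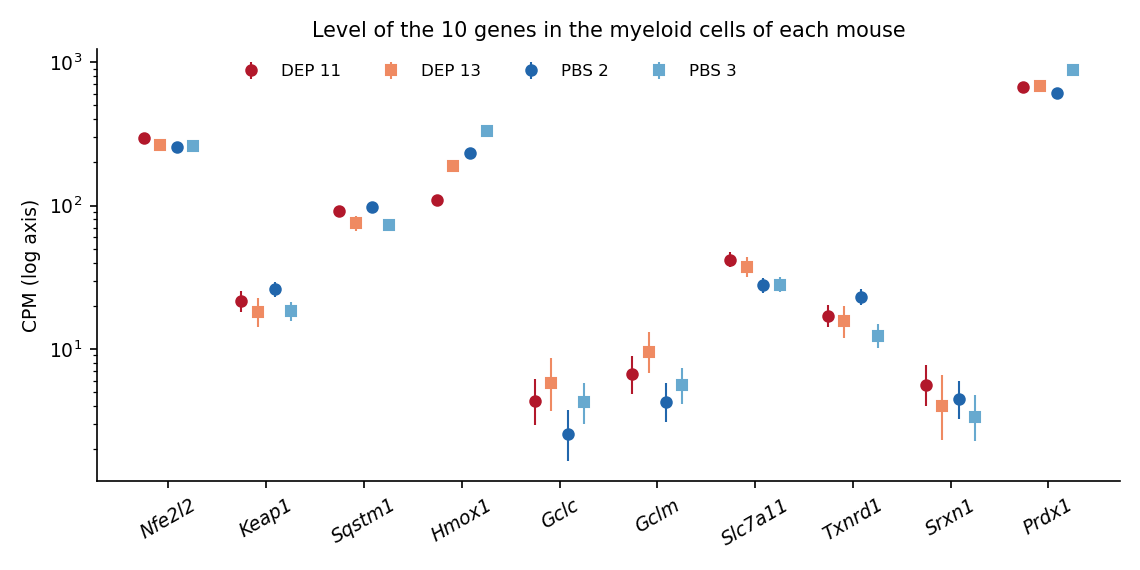
CPM (log axis) of the 10 genes in the summed myeloid cells of each mouse, with 95% Poisson intervals that cover counting error only. Hmox1 runs from 109.7 CPM in DEP 11 to 332.8 CPM in PBS 3, with both DEP mice under both PBS mice, whereas Keap1, Sqstm1, Txnrd1, Srxn1 and Prdx1 overlap between the groups.

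Hmox1, the classical inducible target, was lower in the DEP mice. It stood at 109.7 and 188.3 CPM in DEP 11 and DEP 13 and 232.0 and 332.8 CPM in PBS 2 and PBS 3, so that the groups did not overlap, although DEP 13 was nearer to PBS 2 than to DEP 11. The means were 149.0 ± 55.6 CPM in DEP and 282.4 ± 71.2 CPM in PBS (SD, n = 2 each), and the log2 fold change was −0.93 (SE 0.28, edgeR adjusted p = 0.9998). The same order of mice was seen in Ly6c2-high cells (log2 fold change −0.9997, SE 0.29, edgeR adjusted p = 0.9996) and in C1qa-high cells (−0.84, SE 0.27, edgeR adjusted p = 0.9991). In each of the 3 sets of cells Hmox1 was among the genes with an unadjusted p under 0.05. In all myeloid cells, groups that did not overlap were seen in 12.4% of tested genes with DEP lower and 14.4% with DEP higher. Sums over cells cannot tell fewer Hmox1-bearing cells from less Hmox1 per cell.

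The call for Hmox1 turned on the settings. Over all genes with a count it was called in all myeloid cells (log2 fold change −0.95, edgeR adjusted p = 8.90e-05), in Ly6c2-high cells (−1.03, adjusted p = 0.0127) and in C1qa-high cells (−0.86, adjusted p = 0.00188). In all myeloid cells it was also called without DEP 13 (−1.40, adjusted p = 0.00162), without PBS 2 (−1.19, adjusted p = 5.44e-10) and without PBS 3 (−0.60, adjusted p = 0.0331), and in Ly6c2-high cells without DEP 13 (−1.43, adjusted p = 0.0139). The adjusted p ranged from 5.44e-10 to 0.9999 over 13 alternatives in all myeloid cells, 4 of which called the gene, and the log2 fold change was negative in all of them (−1.40 to −0.56, the latter without DEP 11). The value turned on single mice in both sets of cells too. In Ly6c2-high cells it ranged from −1.43 without DEP 13 to −0.59 without DEP 11 and −0.58 without PBS 3, and in C1qa-high cells from −1.24 without DEP 13 to −0.51 without DEP 11 and −0.40 without PBS 3.

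Stress genes that respond to tissue dissociation also had lower means in the DEP mice. Of 17 immediate early and heat shock genes, 16 had a lower mean in DEP in all myeloid cells, in Ly6c2-high and in C1qa-high cells, where 50.1 to 53.4% of all tested genes had a lower mean. Their summed level was 14427 CPM in DEP 11 and 12680 in DEP 13, against 17905 in PBS 2 and 16783 in PBS 3. Within the groups the summed level had another order than Hmox1, since DEP 11 had more than DEP 13, and PBS 2 more than PBS 3. Of all tested genes, the one most like Hmox1 over 16 sums of mice and sets of cells was Hspb1 of this list (Pearson r = 0.93). Over the 12 sums without the cells high in both markers, an alternative added after seeing the data, it was Hsp90aa1 of this list (r = 0.93). The genes next in rank, Dnajb4 (r = 0.91) and Txnip (r = 0.91), are not in the list. Sums of 1 mouse share a library, so that these values are descriptions only. The part of dissociation in the Hmox1 difference was not tested. The 6 T cell genes summed to 20.4 and 20.6 CPM in the DEP and 31.5 and 31.9 CPM in the PBS mice in all myeloid cells, and to 5.0 and 3.9 against 9.1 and 15.3 CPM in C1qa-high cells. In Ly6c2-high cells the order was the opposite, with 62.6 and 47.1 CPM in the DEP and 40.3 and 24.4 CPM in the PBS mice. The 4 plasma cell genes summed to 514.2 and 807.5 CPM in the DEP and 364.2 and 1252 CPM in the PBS mice in all myeloid cells. The part of these cells in the differences between the groups was not tested.

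**Figure D5:**
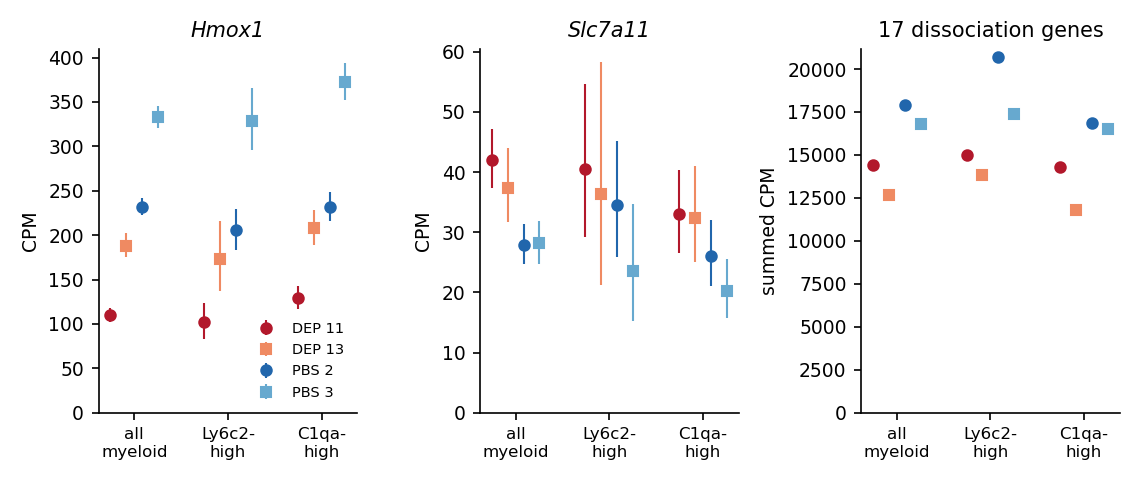
CPM of Hmox1 and Slc7a11 (y axes from 0, bars are 95% Poisson intervals covering counting error only) and the summed CPM of 17 dissociation genes in all myeloid, Ly6c2-high and C1qa-high cells of each mouse. In all 3 sets of cells both DEP mice lie under both PBS mice for Hmox1 (109.7 and 188.3 against 232.0 and 332.8 CPM in all myeloid cells) and for the dissociation genes, and above them for Slc7a11.

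Slc7a11 had the opposite order. It stood at 42.0 and 37.4 CPM in DEP 11 and DEP 13 and 27.9 and 28.1 CPM in PBS 2 and PBS 3, with both DEP mice above both PBS mice. The log2 fold change was 0.50 in all myeloid cells (SE 0.17, edgeR adjusted p = 0.9998), 0.39 in Ly6c2-high cells (SE 0.31, adjusted p = 0.9996) and 0.51 in C1qa-high cells (SE 0.22, adjusted p = 0.9991). In Ly6c2-high cells the value was 0.68 without PBS 2 and 0.21 without PBS 3, and in C1qa-high cells it was 0.94 with C1qa divided at its tertiles (adjusted p = 0.848). The unadjusted p was under 0.05 in all myeloid and in C1qa-high cells, and the lowest adjusted p over the alternatives in all myeloid cells was 0.199. Gclm and Gclc, which act after Slc7a11 in glutathione synthesis, had 6.6 and 9.5 CPM (Gclm) and 4.3 and 5.8 CPM (Gclc) in the DEP mice and 4.3 and 5.6 CPM (Gclm) and 2.5 and 4.2 CPM (Gclc) in the PBS mice. Over all myeloid cells both genes were higher in both DEP mice, from 23 to 50 UMIs per mouse, as 14.4% of the tested genes were, and for Gclc the nearest mice stood at 4.33 CPM (DEP 11) and 4.24 CPM (PBS 3). In Ly6c2-high cells both genes were also higher in both DEP mice, with 8.7 and 8.6 against 4.5 and 3.8 CPM for Gclm (4 to 9 UMIs per mouse) and 4.8 and 10.7 against 0.6 and 1.9 CPM for Gclc (1 to 5 UMIs per mouse), where 15.1% of the tested genes had this order. In C1qa-high cells the groups overlapped for Gclm (6.7 and 10.6 CPM in DEP, 3.7 and 7.6 CPM in PBS) and for Gclc (3.5 and 5.8 CPM in DEP, 2.3 and 4.1 CPM in PBS). Over all 16624 genes with a count, their log2 fold changes were 0.67 (SE 0.32) and 0.53 (SE 0.36), with an edgeR adjusted p of 0.995 for each in all myeloid cells. In Ly6c2-high cells, over 13421 genes with a count, they were 1.002 (SE 0.68) and 2.45 (SE 1.03), with an edgeR adjusted p of 0.996 for each.

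Over all myeloid cells, the other genes had smaller differences between the groups. Nfe2l2 had 297.5 and 265.4 CPM in DEP and 256.4 and 261.3 CPM in PBS, with no overlap but a gap of a few CPM (log2 fold change 0.12, SE 0.15), and it overlapped in Ly6c2-high cells (log2 fold change −0.06, SE 0.21). Keap1 had 21.5 and 18.1 against 26.1 and 18.3 CPM (log2 fold change −0.16, SE 0.21), and Sqstm1 had 91.7 and 75.1 against 97.3 and 73.3 CPM (−0.03, SE 0.18). In the thioredoxin branch, Txnrd1 had 17.03 and 15.6 against 23.1 and 12.4 CPM (log2 fold change −0.11, SE 0.27), and Prdx1 had 671.1 and 686.2 against 614.9 and 879.8 CPM (−0.15, SE 0.20). Srxn1 had 5.6 and 4.0 against 4.5 and 3.3 CPM. In C1qa-high cells, Srxn1 did not overlap, with 7.4 and 4.8 CPM in DEP and 3.1 and 4.1 CPM in PBS (10 to 21 UMIs per mouse), as 14.6% of the tested genes did with DEP higher. Over 15138 genes with a count, its log2 fold change there was 0.78 (SE 0.45, edgeR adjusted p = 0.980). Over all myeloid cells, the PBS mice differed in Keap1, Sqstm1, Txnrd1, Prdx1 and Srxn1 more from each other than the group means did. Of the 7 tested genes, 2 did not overlap with DEP higher and 1 with DEP lower in all myeloid cells, against 26.8% of all tested genes in either direction. In Ly6c2-high cells these were 1 and 1 (28.8% of tested genes in either direction), and in C1qa-high cells 2 and 1 (30.3%).

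The share of cells with a UMI kept the order of the groups for Hmox1 but not for Slc7a11. After thinning every myeloid cell to 1000 UMIs, a Hmox1 UMI was found in 8.56 and 15.2% of cells in DEP 11 and DEP 13 and 16.2% and 23.9% of cells in PBS 2 and PBS 3, against 31.0, 45.1, 57.4 and 61.4% before thinning. The mean was 11.9% ± 4.69 in DEP and 20.1% ± 5.43 in PBS (SD, n = 2 each), a difference of −8.18 percentage points with an exact two-sided permutation p of 0.333, the smallest that 2 against 2 mice allow. For Nfe2l2 the shares were 25% and 25.8% in DEP and 21.0 and 20.8% in PBS, a difference of 4.47 points (exact permutation p = 0.333), which turned to −1.89 points without thinning. For Slc7a11 the shares overlapped, with 3.19 and 3.83% in DEP 11 and DEP 13 and 3.2 and 2.53% in PBS 2 and PBS 3 (exact permutation p = 0.667), and for Gclm and Gclc the exact permutation p was 1. No gene of the 10 reached an adjusted p under 1 in these exact permutation tests.

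Whether the DEP difference itself varied between C1qa-high and Ly6c2-high cells was tested as an interaction. It was called for 14 of 7055 genes, or 0.198% (0.142% higher and 0.0567% lower), with 419 at an unadjusted p under 0.05, and for none of the 7 tested Nrf2 response genes or 37 tested pathway genes. For Hmox1 the DEP differences were −0.84 and −0.9997, and the interaction was 0.16 on the log2 scale (SE 0.15, edgeR adjusted p = 0.978). Prdx1 had the lowest p among the 7 genes (log2 0.23, SE 0.11, edgeR adjusted p = 0.859). Interaction values of the others lay between −0.38 (Keap1, SE 0.39) and 0.31 (Txnrd1, SE 0.42).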

How the data were processed

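The deposited values were UMI counts per gene and barcode from 10x Genomics 3' v2 libraries, not normalized, and the submitters' processing notes name Cell Ranger, STAR 2.6.1a, R 3.5.1 and mm10. The sources used here do not state a filter on barcodes before deposit, and the lowest barcode had 101 UMIs. Of 28692 identifiers, 28339 received a symbol from GENCODE M21 (mm10). Barcodes were assigned to mice by the suffix that names the sample. Their letters run as a series, so that barcodes shared between libraries could not be counted. Under the gene and mitochondrial filters of the study's methods 4623 cells remained, several times as many as those methods state, and the study names another deposit for its cells, so that it is not known whether this table holds the cell calling that the study analysed.

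Doublets were not called. UMI counts of cells with at least 1000 UMIs were summed per mouse, the replicate, and set of cells. Genes that exceeded 1 CPM in 2 or more sums and had a UMI in 5% or more of the cells entered the edgeR 4.0.16 quasi-likelihood fit and F test (R 4.3.3, TMM, Benjamini-Hochberg adjustment over all tested genes). The comparison of C1qa-high with Ly6c2-high cells and the interaction used 8 sums with the mouse as a block. DESeq2 1.42.0, limma voom 3.58.1, other filters, scalings and depths, leaving out the 5% of cells with the most UMIs and leaving out each mouse were alternatives, and the scripts were tested on simulated data. The SE of a log2 fold change is its absolute value divided by the square root of the edgeR F statistic, and not a spread over mice. Intervals are exact at 95%. The 10 genes, the 43 further pathway genes (up to 3 named per role and direction, by p), the marker lists and the 17 dissociation genes were chosen with earlier results of these data known.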

Additional observations from a re-analysis of the deposited data

How the results depend on the processing

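Of 475 alternative values of the Nrf2 response genes, 417 kept their direction and side of the threshold, 44 changed sign, 8 gained and 6 lost a call. No paired analysis was possible between DEP and PBS mice because they share no replicate numbers (11 and 13, 2 and 3). For C1qa-high against Ly6c2-high cells, the mouse was the replicate block, and without it 2015 genes were called instead of 2672. The cause of these changes was not tested. With 1 mouse left out, the lone mouse of its group is assumed to vary like the others.

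In all myeloid cells, the count of genes called for DEP against PBS moved from 0 to 4 in DESeq2, 79 over all genes with a count and 1 without the 5% of cells with the most UMIs, and was 3 to 110 with a mouse left out (3 without DEP 11, 17 without DEP 13, 104 without PBS 2, 110 without PBS 3). In Ly6c2-high cells it was 21 over all genes with a count and 0 to 9 with a mouse left out. In C1qa-high cells it was 3 in DESeq2, 58 over all genes, 2 without the deepest 5% and 1 with C1qa at its tertiles, and 1 to 7 with a mouse left out. The class comparison called 1754 genes in DESeq2 and 915 after thinning to 1000 UMIs. The interaction called 14 genes, against 3 in DESeq2, 31 over all genes, 27 under the study's cell filters and 4 after thinning, and 6 to 36 with a mouse left out.

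All sign changes were of log2 values that had not passed the test. For DEP against PBS, Sqstm1 turned to 0.10 after thinning and 0.041 without the deepest 5% in all myeloid cells (−0.18 to 0.15 with a mouse left out). In Ly6c2-high cells it turned to 0.014 in DESeq2, 0.010 in voom, 0.000635 with library sizes only, 0.022 at 2000 UMIs, 0.19 after thinning and 0.13 at tertiles (−0.18 to 0.25), and in C1qa-high cells to 0.22 after thinning and 0.078 without the deepest 5% (−0.21 to 0.13). Nfe2l2 in Ly6c2-high cells turned to 0.20 after thinning (−0.19 to 0.047) and Keap1 to −0.049 at tertiles (−0.21 to 0.32; −0.35 to 0.088 in all myeloid cells). In C1qa-high cells, Prdx1 turned to 0.034 in voom and 0.072 after thinning (−0.31 to 0.38; −0.41 to 0.18 in all myeloid and −0.48 to 0.15 in Ly6c2-high cells). Txnrd1 there turned to −0.0168 with library sizes only, −0.0167 over all genes, −0.0134 under the study's filters, −0.061 without the deepest 5% and −0.13 at tertiles (−0.40 to 0.61; −0.46 to 0.36 in all myeloid and −0.52 to 0.034 in Ly6c2-high cells). In the class comparison Keap1 ranged from −0.12 to 0.10 with a mouse left out. In the interaction Sqstm1 turned to −0.026 in DESeq2 and −0.22 at tertiles (−0.30 to 0.20), and with a mouse left out Txnrd1 ranged from −0.21 to 0.67 and Slc7a11 from −0.010 to 0.18.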

Other observations

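Txnip encodes an inhibitor of thioredoxin. Of the further pathway genes, 37 were tested in all myeloid and 36 in C1qa-high cells. Only Txnip came under an unadjusted edgeR p of 0.05 between DEP and PBS mice in these cells. Of all tested genes, 167 of 6567 and 254 of 6915 did so, so that Txnip does not set the pathway apart. In C1qa-high cells Txnip stood at 113.0 and 145.3 CPM in DEP 11 and DEP 13 and 194.9 and 256.2 CPM in PBS 2 and PBS 3. The order of mice was that of Hmox1, and both DEP mice lay under both PBS mice, as for 15.7% of the tested genes. The log2 fold change was −0.80 (SE 0.21, edgeR adjusted p = 0.757), against −0.26 in Ly6c2-high cells (SE 0.26). The interaction was −0.55 on the log2 scale (SE 0.17, edgeR adjusted p = 0.459).

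Over the 16 sums of 4 mice and 4 sets of cells, the genes whose level was most like that of Hmox1 were Hspb1 (Pearson r = 0.93), a small heat shock protein that is also in the dissociation list, Dnajb4 (r = 0.91), a heat shock co-chaperone, and Zfp398 (r = 0.87), where the 99th percentile over the tested genes was 0.78. Without the sums of the few cells high in both markers, an alternative added after seeing the data, they were Hsp90aa1 (r = 0.93), another dissociation gene, Txnip (r = 0.91) and Fcer1g (r = 0.91) over 12 sums, with a 99th percentile of 0.68. For Slc7a11 they were Nosip, Pef1 and Rp2 (r = 0.98, 0.98 and 0.97), with a 99th percentile of 0.95, and Tnni2, Hnrnpa1 and Ptgs2 (r = 0.88, 0.85 and 0.84) over the 12 sums. For Srxn1 they were H2-DMb1, Got1 and Cxcl2 (r = 0.94, 0.94 and 0.92), and Echdc1, Lag3 and Sh3pxd2b (r = 0.96, 0.95 and 0.95) over the 12 sums. Sums of 1 mouse share a library and its depth, and the listed genes changed with the choice of sums, so that these values are descriptions only.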
